A study of Mus musculus with 21 samples.

Results

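The genes described here are 46 cell cycle genes, picked by name for their known function and followed across the cell types of a mouse malignant melanoma (MM) model. All 46 were found among the 32285 genes of the counts. By role they comprised 5 G1 kinases and D cyclins, 2 inhibitors, 15 genes of S phase, 22 genes of G2 and mitosis (G2/M), and 2 genes that many cells also express outside the cycle (Hmgb2 and Tubb4b).

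Fragments of MT-ret melanoma were transplanted under the skin of 8- to 10-week-old mT/mG mice of both sexes, in which host cells carry the red protein tdTomato and transplanted MM cells do not. Primary tumors were resected, and lung metastases were collected later. Host cells of the tumor microenvironment (TME) and MM cells were sorted apart from either site and processed for 10x single-cell RNA sequencing, with lungs of mT/mG mice that received no tumor as unchallenged control. The 5 groups were thus primary tumor TME, lung metastasis TME, unchallenged lung, primary tumor MM and lung metastasis MM. No Cre was used, all hosts share the mT/mG transgene, the transplant is 1 melanoma model, and metastasis samples held some tissue beside the tumor. Hosts were sorted as tdTomato+ or as tdTomato+ CD45- cells, without a statement of which sample was sorted which way, so that shares of leukocytes in a library can follow the sort. A dissociation and a freezing step preceded the sort in all groups.

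Cells divide by passing through G1, S, G2 and mitosis. In G1, D cyclins bind the kinases Cdk4 and Cdk6 and release E2F factors, whose targets copy the DNA in S phase, while p16Ink4a, a product of Cdkn2a, holds these kinases back and p21 (Cdkn1a) restrains cyclin-dependent kinases more widely. The other product of Cdkn2a, p19Arf, acts through Mdm2 and p53, and the counts of the gene do not tell the products apart. A later wave of genes, driven by the MuvB complex with B-Myb and FoxM1, builds the spindle and is read through CCAAT boxes and the cell cycle genes homology region of its promoters.

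The counts covered 110283 barcodes under 24 library names. After 5 names that repeat the barcodes and counts of another name were left out, 100359 cells in 16 libraries remained, with 1777036 to 60339415 UMIs per library. A UMI (unique molecular identifier) stands for 1 captured RNA molecule. Libraries are the replicates throughout, and 1074 barcodes occurred in more than 1 of them. Of the cells, 52100 were MM cells, and 90 stayed unnamed. The cluster called LEC (lymphatic endothelial cells) expressed Lyve1, Cldn5 and Cd93, but the defining lymphatic genes Prox1 and Mmrn1 were at 0 in 7 and 5 of its 8 libraries, so the name stands here for its leading genes only. MM cells were compared from the 4 libraries sorted for them. The lung metastasis MM library of replicate 4 held 397 MM cells among 638 and was the smallest of these. Host types also include cells found in the lung metastasis MM libraries, which count as host libraries below wherever at least 20 cells were left. These were 23 fibroblasts in replicate 5, and 26 macrophages, 86 B cells, 63 neutrophils and 21 T cells in replicate 4.

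Cells caught in G2 or mitosis were more frequent among MM cells of the sorted libraries than in most host types. To compare types at equal depth, each cell was thinned to 1000 UMIs, shallower cells were left out, and a cell was counted where at least 2 of the 22 G2/M genes had a UMI. Of the MM cells, 11.7% (45 of 385) passed in lung metastasis replicate 4 and 18.5% (2085 of 11247) in replicate 5. In primary tumor, 34.1% (9918 of 29054) passed in replicate 4 and 26.5% (1708 of 6440) in replicate 5. The mean was 22.7% ± 9.73 (SD, n = 4 libraries). MM cells found in libraries sorted for host cells were left out here. Their shares ran from 5.14% to 20.0% by library where at least 20 cells were left. They lay below fibroblasts of the same library in lung metastasis TME replicate 6 (5.14% against 16.3%) and primary tumor TME replicate 6 (19.0% against 21.5%). In the other libraries with both they lay above fibroblasts.

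Host libraries of tumor and lung were pooled here, and their mix differed between types. Fibroblasts had a mean of 8.49% ± 7.54 (n = 8 libraries), macrophages 6.63% ± 4.38 (n = 11) and blood endothelial cells (BEC) with 5.32% ± 4.45 (n = 11). The libraries ranged from 0% to 21.5% in fibroblasts, 0% to 12.7% in macrophages and 0% to 11.2% in BEC, and 2 fibroblast libraries (16.3% and 21.5%) lay above all libraries of the other two types. In unchallenged lung alone the means were 1.41% in fibroblasts, 3.55% in macrophages and 0.156% in BEC, another order. T cells averaged 3.94% ± 3.36 (n = 6), club cells, the secretory cells of the airway, 2.78% ± 3.49 (n = 4) and neutrophils 2.28% ± 4.13 (n = 10). Respiratory ciliated cells (RCC) averaged 1.79% ± 1.78 (n = 5), alveolar type II (AT-2) cells 1.78% ± 1.57 (n = 3) and NK cells 1.36% ± 1.44 (n = 5). Monocytes at 1.31% ± 1.79 (n = 10), B cells at 1.08% ± 0.971 (n = 6) and LEC at 0.889% ± 1.80 (n = 8) had the lowest of these pooled means. Neutrophils and ciliated cells do not divide once mature, so their shares gauge the background. In neutrophils the mean rests on 2 libraries, the median was 0.376% and the mean was 1.43% or 1.41% without 1 of them and 0.336% without both. In RCC single libraries weighed as well, with shares of 0%, 0% and 2.78% in unchallenged lung and 2.06% and 4.08% in metastasis. The pigment genes Dct, Tyrp1, Mlana and Pmel, a measure of melanoma RNA, were together at 4270 and 1176 CPM (counts-per-million units) in RCC of metastasis and at up to 7.05 in those of lung. G2/M UMIs per pigment UMI in RCC of metastasis were 0.059 and 0.136, the first within the 0.0428 to 0.0883 of sorted MM cells. The level of background is thus uncertain, and the low shares of AT-2 cells, NK cells, monocytes, B cells and LEC were not told apart from it. Median UMIs per cell ranged over libraries from 1459 to 4058 in neutrophils and from 1654 to 7414 in RCC, beside 1654 to 4501 in MM cells. Most neutrophil libraries were at or below 1.01%, but primary tumor replicate 4 reached 10.2% (26 of 256) and lung metastasis replicate 5 reached 10.0% (4 of 40). Without Kif23, the G2/M gene that was highest in neutrophils, these shares were 5.47% (14 of 256) and 10.0% (4 of 40). In the neutrophils of these libraries the pigment genes were at 739 and 7237 CPM, beside 0 to 3.91 in unchallenged lung. G2/M UMIs per pigment UMI were 0.734 and 0.0712 there, the second within the range of sorted MM cells. At a share of 0%, neutrophils of lung metastasis TME replicate 6 held 1431 CPM, those of lung metastasis MM replicate 4 held 970 and those of primary tumor replicate 1-3 held 743, all above the first of these values and far below the second. The part of melanoma RNA in these shares was not tested. Without thinning, the median share was 61.4% in MM cells, 20.0% in fibroblasts, 13.6% in BEC, 10.0% in RCC and 4.30% in neutrophils.

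**Figure D1:**
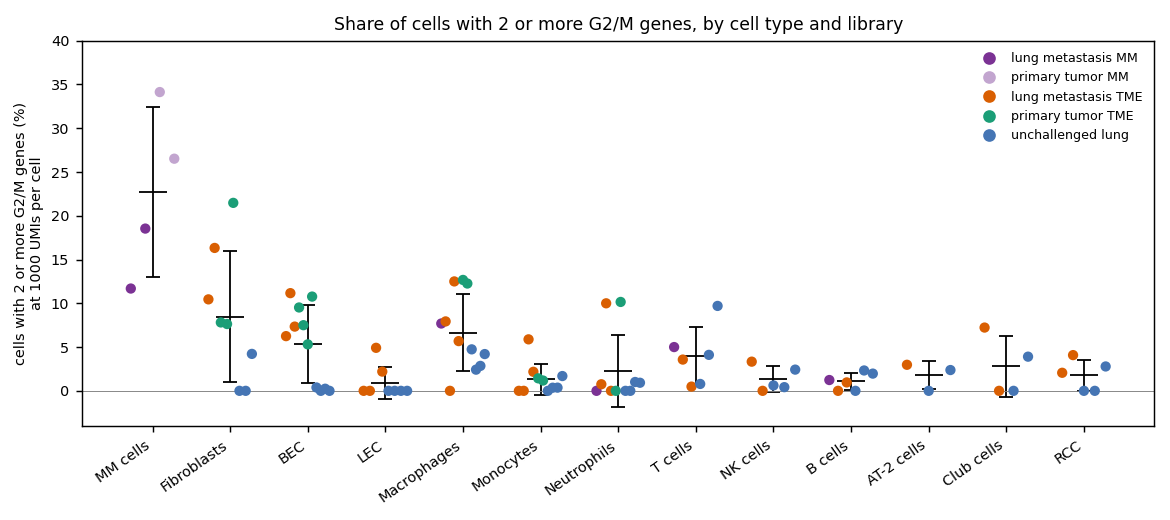
Share of cells with a UMI of at least 2 of 22 G2/M genes at 1000 UMIs per cell (percent, linear axis) in 13 cell types, with 1 point per library colored by group and black marks for mean ± SD over libraries. The 4 MM libraries lie between 11.7% and 34.1%, above every library of the host types other than fibroblasts and macrophages.

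The difference from MM cells was tested over libraries with a two-sided exact permutation test, adjusted over 12 host types. BEC lay 17.4 percentage points below MM cells (adjusted p = 0.00799), with no overlap between their libraries. Monocytes lay 21.4 points below (0.00799) and neutrophils 20.4 (0.00799). LEC lay 21.8 points below (adjusted p = 0.0121), B cells 21.6 (0.0163), T cells 18.8 (0.0163), NK cells 21.4 (0.0212), RCC 20.9 (0.0212) and club cells 19.9 (0.0312). Libraries of macrophages (16.1 points lower, adjusted p = 0.0141) and of fibroblasts (14.2 points lower, adjusted p = 0.0291 by the exact test) overlapped those of MM cells. For AT-2 cells the 20.9 points lower share had an exact p of 0.0571, the smallest that 3 against 4 libraries allow. With Hmgb2 and Tubb4b added to the genes that are counted, the neutrophil difference was 7.53 points and no longer passed, and the calls in T cells, NK cells, club cells, RCC and fibroblasts were lost as well, at 19.8, 19.7, 21.4, 15.9 and 18.7 points. Where the fibroblast test left out primary tumor MM replicate 4 or 5, the difference was 10.4 or 12.96 points and the exact test no longer passed (adjusted p = 0.0793 in either case). Run numbers in the library names put MM cells in 2 runs. Within these runs the difference ranged from 12.5 to 22.9 points in the same direction for the 9 host types present in both, and the smallest p that 2 runs allow is 0.5.

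A like share was taken for S phase, as cells with a UMI of at least 2 of 15 genes. In MM cells it was 7.53% and 4.24% in the metastasis libraries, and the mean over all 4 libraries was 6.49% ± 1.52. T cells at 6.96% ± 3.10 (n = 6, exact test, adjusted p = 0.733) and NK cells at 7.28% ± 2.27 (n = 5, exact test, adjusted p = 0.589) did not pass the test against MM cells. The other types were lower, from 0.367% ± 0.624 in neutrophils (adjusted p = 0.0176 by the exact test) to 3.22% ± 2.06 in macrophages (adjusted p = 0.0276), with AT-2 and club cells not past the threshold (0.0686 in both, exact test). The test thus did not tell T and NK cells from MM cells for this share, while their G2/M shares lay below every MM library. Pcna alone had a UMI in 10.0% to 20.0% of NK cells by library, and Rrm2 in 0% to 0.606%. Cells that passed both the S phase and the G2/M count averaged 2.07% in MM cells, 0.931% in T cells and 0.236% in NK cells.

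The levels of the single genes are given in counts-per-million units (CPM), the UMIs of a gene relative to all UMIs of a cell type in a library, and the median over libraries is compared between types, never between genes, since capture differs from gene to gene. Fewer cycling cells and less RNA per cycling cell cannot be told apart in these sums. Of the 22 G2/M genes, 21 had their highest median level in MM cells, and the exception was Kif23, which was highest in neutrophils. Of the 15 S phase genes, 5 were highest in MM cells, 7 in NK cells and 3 in T cells. Of the 5 G1 genes, Ccnd1 and Cdk4 were highest in MM cells, Ccnd2 and Ccnd3 in NK cells and Cdk6 in macrophages.

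**Figure D2:**
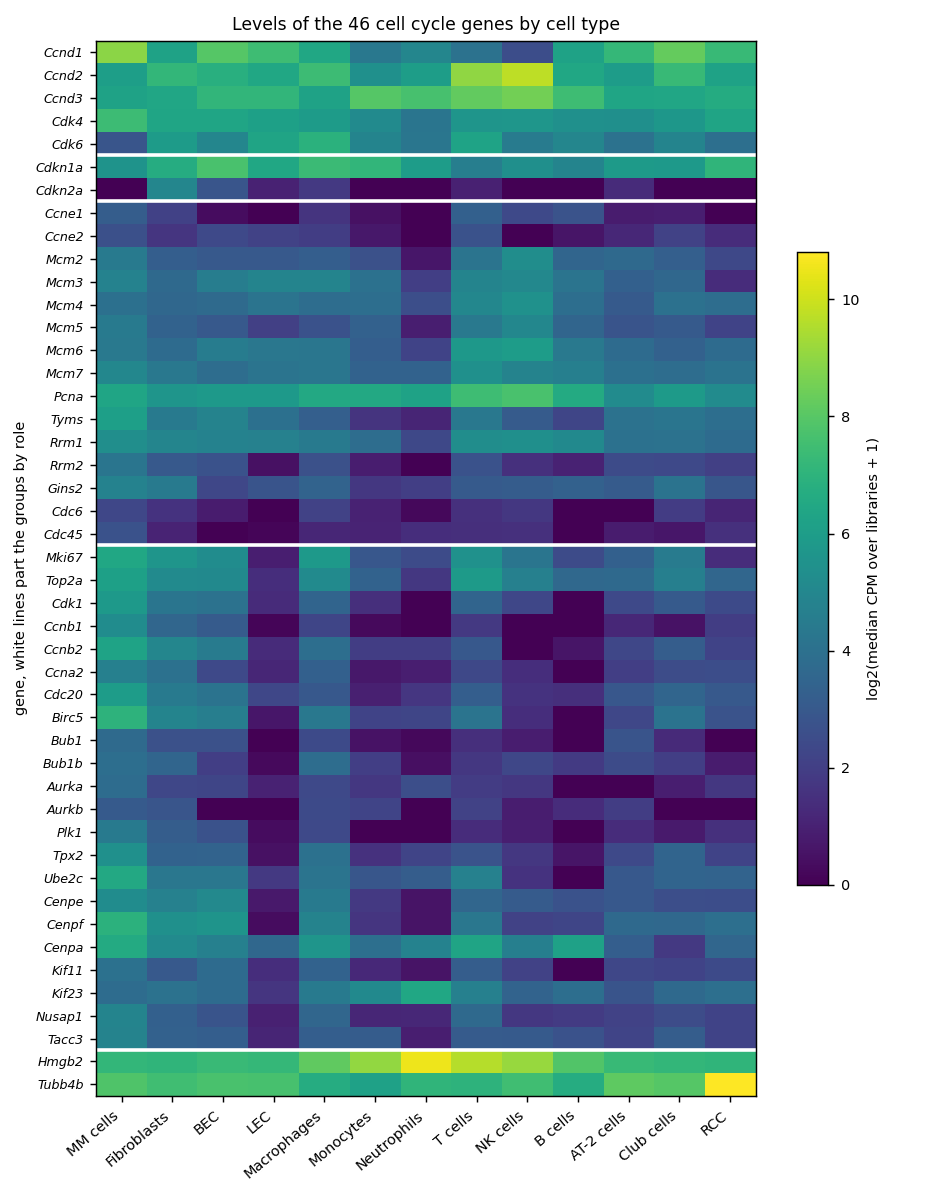
Heat map of the median level over libraries, log2(CPM + 1), of the 46 genes (rows, ordered by role) in 13 cell types (columns), to be read along rows. The G2/M block is brightest in MM cells, the Mcm genes and Pcna in NK and T cells, Hmgb2 in neutrophils (median 1466 CPM) and Tubb4b in RCC (1797 CPM).

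Survivin (Birc5), which guides the chromosomes and holds the cytokinesis bridge, was at 87.3 and 114 CPM in the metastasis and at 148 and 138 CPM in the primary tumor libraries of MM cells. In B cells its median was 0 (0 to 17, n = 7) and in fibroblasts 28.5 (0.992 to 180, n = 9). The fibroblast libraries include the 23 cells of lung metastasis MM replicate 5, in which the pigment genes were at 9578 CPM. The kinetochore gene Cenpf was at 119, 89.1, 124 and 130 CPM in these MM libraries, and its medians in hosts reached from 0.287 in LEC to 47.4 in BEC. Every MM library thus lay above the LEC libraries, which ended at 33.4 CPM for Cenpf. The proliferation marker Mki67 stood at 82.5, 63.2, 105 and 91.6 CPM in MM cells and had medians of 56.8 in macrophages, 48.1 in fibroblasts and 43.0 in T cells. Single libraries of these types overlapped MM cells, up to 191 CPM in T cells. In LEC the median of Mki67 was 0.872 (0 to 29.5, n = 8).

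These levels were fitted for all types at once with edgeR's quasi-likelihood test on counts summed per library and type (13615 genes tested, Benjamini-Hochberg over all of them), with host type minus MM cells as contrast. Calls here and below are those of edgeR where DESeq2 is not named. The same 4 MM libraries stand in all 12 contrasts, so these are not independent. Of the 46 genes, 42 passed the filter on low counts, and Ccne1, Ccne2, Cdc6 and Cdc45 did not. Since a gene could pass through its level in MM cells alone, the counts below are descriptions. In LEC, 32 of 42 genes were lower and 2 higher (27.2% of all tested genes were called lower and 28.1% higher). Monocytes had 32 lower and 4 higher (33.1% and 30.5% of all genes), and neutrophils 31 and 6 (38.8% and 31.7%). In RCC 30 genes were lower and 3 higher (22.7% and 33.0%), in BEC 27 and 4 (24.1% and 28.1%) and in B cells 26 and 2 (30.2% and 30.9%). In NK cells 25 were lower and 6 higher (30.0% and 25.1%), in macrophages 24 and 3 (26.9% and 31.0%), in fibroblasts 23 and 2 (19.6% and 30.2%) and in AT-2 cells 23 and 2 (16.9% and 29.3%). T cells with 14 lower and 7 higher (29.8% and 24.7%) and club cells with 14 and 1 (18.3% and 27.8%) had the fewest lower genes. The share of lower genes in T cells was near that of all genes. The median log2 difference of the 42 genes ranged from -2.87 in LEC to -1.17 in T cells, while that of all genes lay between -0.25 and 0.19.

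Most of the lower genes were those of G2/M. All 22 were called lower in LEC, 20 each in monocytes, neutrophils, NK cells, B cells and RCC, 17 each in BEC and AT-2 cells, 14 in macrophages, 13 in fibroblasts, 11 in club cells and 9 in T cells. The share of all genes called lower in each type is the one given above. By edgeR 8 of the G2/M genes were lower in all 12 contrasts: Birc5, the B cyclins Ccnb1 and Ccnb2, their kinase Cdk1, the mitotic kinase Plk1, Cenpf, and Cdc20 and Ube2c, which work with the anaphase promoting complex that ends mitosis. How many of all genes were lower in all 12 is not given. The contrasts share the MM libraries, so this count is a description too. DESeq2 called fewer, with Ccnb2 lower in 10 of the 12 contrasts, Cdk1 and Cdc20 in 9 each, Birc5 and Plk1 in 7 each, and Ccnb1, Cenpf and Ube2c in 6 each. By edgeR, for Cdc20 in monocytes the log2 difference from MM cells was -5.88 ± 0.75 (SE, adjusted p = 1.74e-10). For Cenpf in LEC the log2 difference was -5.05 ± 0.91 (adjusted p = 2.3e-06), and for Ccnb2 in BEC it was -2.68 ± 0.68 (adjusted p = 0.000644). Ube2c was lower in fibroblasts by a log2 difference of -2.51 ± 0.80 (adjusted p = 0.0062) and Cdc20 in macrophages by one of -2.94 ± 0.57 (adjusted p = 8.22e-06).

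Mki67 itself, the gene most often used to stain dividing cells, passed in 7 of 12 contrasts. Its log2 difference was -4.53 ± 0.93 in LEC (adjusted p = 2.73e-05), -3.86 ± 1.00 in B cells (0.000597) and -2.31 ± 0.81 in neutrophils (0.00911). In macrophages (-0.74 ± 0.73, adjusted p = 0.397), fibroblasts (-1.04 ± 0.76, 0.258), T cells (-0.63 ± 0.85, 0.563), BEC (-1.54 ± 0.73, 0.0681) and club cells (-1.996 ± 1.02, 0.102) it did not pass. Top2a, the topoisomerase that untangles chromosomes, passed in 6 contrasts and not in macrophages (-0.87 ± 0.68, adjusted p = 0.272), fibroblasts (-1.41 ± 0.72, 0.0935) or BEC (-1.37 ± 0.68, 0.0839). These counts depended on the tool. With DESeq2, 5 genes were lower and 2 higher in fibroblasts (10.5% and 43.0% of all genes), 11 and 4 in BEC (16.3% and 39.9%), and 13 and 4 in macrophages (23.9% and 34.8%). In AT-2 cells it called 12 and 3 (11.4% and 35.1%), in T cells 8 and 8 (24.3% and 34.1%) and in club cells 4 and 4 (9.89% and 35.9%). Its counts lay nearer to those of edgeR in LEC with 28 lower and 3 higher (19.6% and 40.1%), in monocytes with 31 and 4 (32.7% and 32.1%), in neutrophils with 28 and 6 (35.2% and 35.3%) and in NK cells with 23 and 8 (27.3% and 31.2%). B cells had 23 and 3 (23.5% and 38.9%) and RCC 22 and 3 (14.7% and 42.7%). By edgeR 14 genes were called in fibroblasts without primary tumor MM replicate 4, all among those of the whole fit. In AT-2 cells 9 were called without unchallenged lung replicate 5 and 14 without replicate 6, and in club cells 9 and 4, again all among those of the whole fit, while 7 of the 8 called in club cells without lung metastasis TME replicate 6 were. Fewer of all genes were called lower in these fits too, 13.3% in fibroblasts, 7.34% and 10.7% in AT-2 cells, and 11.7%, 12.6% and 15.9% in club cells.

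The promoters of these genes carry the motifs by which the G2/M wave is known. RefSeq promoters (GRCm38.p6, 250 bases before to 50 after the start) were matched by symbol for 38 of the 46 genes. On either strand CCAAT occurred in 16 of 19 G2/M genes (84.2%) and in 41.1% of all 27025 genes with a promoter in the table, and TTTGAA, the core of the cell cycle genes homology region, in 13 of 19 (68.4%) against 20.2%. Both together were found in 68.4% against 7.97%. The E2F sites TTTGGCGC or TTTCCCGC occurred in 5 of 12 S phase genes (41.7%), in none of the 19 G2/M genes and in 1.80% of all genes. Birc5, called lower in every contrast by edgeR, held none of these letters in its window. Shown are the 250 bases before the start of Cdk1 and Ube2c, lower in every host type by edgeR, and of Mcm6, which was higher in T and NK cells, each 5′ to 3′ on the gene's strand with the searched motifs in capitals.
Cdk1, chr10:69352913-69353162, minus strand: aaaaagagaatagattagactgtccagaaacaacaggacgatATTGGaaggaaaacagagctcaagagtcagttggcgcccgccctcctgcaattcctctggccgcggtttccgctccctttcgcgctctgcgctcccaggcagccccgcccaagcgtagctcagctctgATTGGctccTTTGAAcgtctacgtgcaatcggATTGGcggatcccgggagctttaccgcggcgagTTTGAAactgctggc
Ube2c, chr2:164769679-164769928, plus strand: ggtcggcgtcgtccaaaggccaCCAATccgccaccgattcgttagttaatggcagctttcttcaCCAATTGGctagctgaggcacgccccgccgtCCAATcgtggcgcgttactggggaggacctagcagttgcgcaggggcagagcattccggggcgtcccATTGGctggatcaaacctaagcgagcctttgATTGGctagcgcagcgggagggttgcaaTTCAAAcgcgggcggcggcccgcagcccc
Mcm6, chr1:128359706-128359955, minus strand: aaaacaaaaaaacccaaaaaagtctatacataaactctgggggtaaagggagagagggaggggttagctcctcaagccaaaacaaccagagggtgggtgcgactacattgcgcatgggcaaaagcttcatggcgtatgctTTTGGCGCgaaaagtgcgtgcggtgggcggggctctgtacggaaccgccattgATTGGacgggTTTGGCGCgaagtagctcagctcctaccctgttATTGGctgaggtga
In the Cdk1 promoter the capitals mark ATTGG, which reads as CCAAT on the opposite strand, and also mark TTTGAA. In the Ube2c promoter they mark CCAAT on either strand, in 1 place overlapping, and TTCAAA, which is TTTGAA read on the opposite strand. The Mcm6 promoter held TTTGGCGC and, besides it, ATTGG, while TTTGAA was not in this window.

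Genes of S phase differed less evenly between MM and host cells than those of mitosis. Of the 11 tested, 9 were lower in monocytes and in neutrophils, 8 in fibroblasts, BEC, LEC and RCC, and 7 in macrophages. In T cells and in club cells 2 were lower (29.8% and 18.3% of all genes), in NK and in B cells 3 (30.0% and 30.2%) and in AT-2 cells 5 (16.9%), so that in club, NK and B cells the share was near that of all genes. Thymidylate synthase (Tyms), which makes the thymidine nucleotide for DNA, was lower in all 12 contrasts by edgeR and in 8 by DESeq2. Its level was 50.8, 63.2, 91.0 and 71.3 CPM in the MM libraries, and the highest host median was 27.6 in BEC. In macrophages its median was 8.56 (0 to 25.2, n = 11), a log2 difference of -2.73 ± 0.45 (adjusted p = 2.78e-07).

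The replication clamp gene Pcna and the helicase genes Mcm2 to Mcm6 had their highest medians in NK cells, and Mcm7 in T cells. Pcna had a median of 210 CPM in NK cells (89.8 to 238, n = 5) and 173 in T cells (105 to 292, n = 6), beside 96.9, 54.3, 107 and 63.9 in the MM libraries. Neither of these differences was past the threshold by edgeR, while DESeq2 called both higher. Against MM cells Pcna was lower in 4 types, with log2 differences of -0.89 ± 0.38 in fibroblasts (adjusted p = 0.0412), -0.92 ± 0.36 in BEC (0.0257), -0.998 ± 0.38 in LEC (0.0223) and -0.98 ± 0.43 in RCC (0.0443), and none of these 4 calls was kept by DESeq2. Mcm6 had a median of 62.8 CPM in NK cells (38.5 to 94.5) against 11.1 to 22.5 in MM cells, which was a log2 difference of 1.47 ± 0.43 (adjusted p = 0.00268).

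The D cyclins and their kinases split by cell type. Cyclin D1 (Ccnd1) was at 1107 and 479 CPM in the metastasis and at 462 and 499 CPM in the primary tumor libraries of MM cells. Its host medians fell into a long row, from 307 in club cells, 247 in BEC, 175 in LEC, 155 in RCC and 147 in AT-2 cells to 15.9 in T cells and 4.83 in NK cells. It was lower than in MM cells in 10 contrasts. In NK cells the log2 difference was -6.58 ± 0.85 (adjusted p = 4.12e-10), in T cells -4.99 ± 0.75 (3.79e-08), in neutrophils -4.20 ± 0.58 (1.74e-09) and in monocytes -4.20 ± 0.57 (1.07e-09). Fibroblasts (-3.01 ± 0.56, adjusted p = 5.66e-06), macrophages (-2.88 ± 0.52, 2.05e-06), LEC (-2.30 ± 0.57, 0.000453) and BEC (-1.59 ± 0.53, 0.00866) were also lower, the last not by DESeq2. Club and AT-2 cells did not pass.

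T and NK cells expressed the other D cyclins. Cyclin D2 (Ccnd2) had a median of 863 CPM in NK cells (500.1 to 1105, n = 5) and 517 in T cells (410.1 to 778, n = 6). In MM cells it was at 39.3 and 38.3 in metastasis and at 163 and 91.6 in primary tumor. All T and NK libraries lay above all MM libraries, with log2 differences of 2.12 ± 0.61 (adjusted p = 0.00219) and 2.83 ± 0.64 (adjusted p = 0.000115). No other type passed for Ccnd2 by edgeR, while DESeq2 also called club cells higher. Cyclin D3 (Ccnd3) was higher in 5 types by edgeR and in 7 by DESeq2. In NK cells the log2 difference was 1.91 ± 0.32 (adjusted p = 5.6e-07), in monocytes 1.63 ± 0.29 (1.7e-06) and in T cells 1.46 ± 0.31 (4.76e-05). In BEC it was 0.63 ± 0.27 (adjusted p = 0.0471), a call that was kept by DESeq2 but lost without lung metastasis MM replicate 4 (log2 difference 0.48, adjusted p = 0.189). Neutrophils, with a median of 203 CPM (153 to 363, n = 10) beside 56.1 to 102 in MM cells, were the fifth.

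Cdk4 and Cdk6, which bind the same cyclins, went in opposite directions. Cdk4 was lower than in MM cells (131, 182, 160 and 196 CPM) in all 12 host types, whose medians ranged from 17.2 in neutrophils to 80.9 in fibroblasts. DESeq2 called it lower in 11. Cdk6 was at 16.8, 3.29, 2.82 and 9.03 CPM in these MM libraries, the lowest median of the 13 types, and was higher in all 12 host types by either tool. Macrophages had a median of 120 CPM (59.3 to 176, n = 11), LEC 78.6 (37.1 to 146), T cells 76.5 (64.0 to 115) and fibroblasts 59.4 (0 to 101). The log2 differences were 3.87 ± 0.56 in macrophages (adjusted p = 8.1e-09), 3.11 ± 0.55 in LEC (1.55e-06), 2.98 ± 0.57 in T cells (6.46e-06), 2.70 ± 0.53 in fibroblasts (1.36e-05) and 1.63 ± 0.50 in BEC (0.00424).

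**Figure D3:**
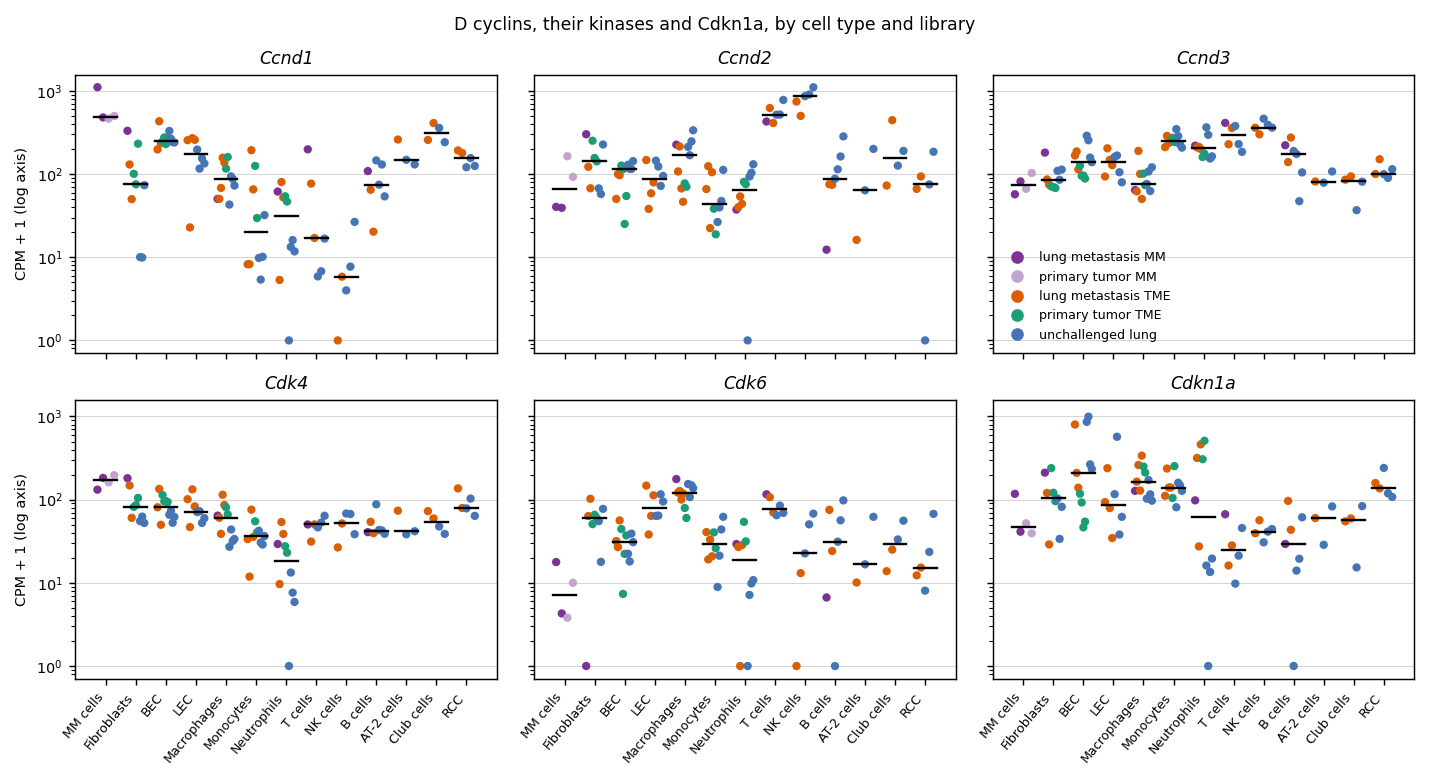
Level of the 5 G1 genes and Cdkn1a (CPM + 1, log axis) in 13 cell types, 1 point per library colored by group, with a black line for the median. Ccnd1 and Cdk4 points of MM cells lie high, Cdk6 points of MM cells (2.82 to 16.8) lie low, and Ccnd2 is highest in NK and T cells.

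The 2 inhibitors behaved differently from each other. Cdkn2a, whose locus encodes p16Ink4a and p19Arf, gave 1 UMI in the 4 MM libraries together, beside 341 UMIs in fibroblasts, 203 in BEC and 100 in macrophages. Per UMI sequenced, the pooled ratio of fibroblasts to MM cells was 3576 with an exact 95% interval of 638 to 141659, and that of BEC was 2415 (429 to 95857). The fitted test called it higher in 10 of 12 types, among them fibroblasts (adjusted p = 3.93e-10), BEC (3.09e-09), macrophages (8.27e-07) and T cells (5.09e-06), the last on 11 UMIs. In neutrophils that call rested on 2 UMIs, with a pooled ratio of 52.5 (2.74 to 3100), and NK cells had none. Cdkn1a, which encodes p21, was found in all types. In MM cells it was at 117, 40.2, 51.0 and 38.4 CPM, and its host median was highest in BEC with 209 (45.4 to 995, n = 11). It passed in BEC (log2 difference 2.11 ± 0.72, adjusted p = 0.0108) and in neutrophils (1.72 ± 0.71, 0.0273). Macrophages were called higher as well by DESeq2. Neither difference held in every tissue. In BEC of primary tumor Cdkn1a was at 117, 91.6, 45.4 and 53.5 CPM, which overlapped MM cells, while BEC of unchallenged lung (233 to 995) and of metastasis (138 to 800) lay above it. In neutrophils of unchallenged lung Cdkn1a was at 15.1, 0, 12.5 and 18.6 CPM, below all MM libraries, while in lung metastasis it was at 316, 26.4 and 461 in TME libraries and 97.0 in the MM library of replicate 4, and in primary tumor at 305 and 510.1.

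A few genes of the list had their highest level in cells that do not divide. The chromatin protein gene Hmgb2 had a median of 1466 CPM in neutrophils (770 to 1828, n = 10), and all 10 libraries lay above the MM libraries (120, 81.7, 228 and 162). Its log2 difference was 3.33 ± 0.44 in neutrophils (adjusted p = 3.09e-10), 2.10 ± 0.42 in T cells (1.78e-05), 1.64 ± 0.39 in monocytes (0.000184), 1.44 ± 0.42 in NK cells (0.00258) and 0.82 ± 0.37 in macrophages (0.0485). The tubulin gene Tubb4b, a building block of cilia, had 2855 and 1797 CPM in the metastasis and 1502, 1862 and 811 CPM in the unchallenged lung libraries of RCC, where the log2 difference from MM cells was 2.66 ± 0.39 (adjusted p = 1.38e-08). Kif23, a kinesin of the cytokinesis bridge, was counted among the 22 G2/M genes but was highest in neutrophils, with a median of 85.9 CPM (26.4 to 246, n = 10) against 10.8 to 16.7 in MM cells (log2 difference 3.34 ± 0.63, adjusted p = 2.97e-06). It was the only one of the 22 G2/M genes to be called higher in any of these contrasts. Leaving Kif23 out of the list left every call on the G2/M share as it was. It lowered the share in neutrophils of primary tumor replicate 4 to 5.47% (14 of 256).

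The next question was whether the host cells of tumors differed from those of unchallenged lung. Primary tumors grew under the skin, so that tumor and organ cannot be told apart for them. The types were also made of other clusters in each tissue. Of fibroblasts, 98.1% in unchallenged lung fell in a cluster led by Clec3b, Dcn and Dpt that held 0.0417% of those of primary tumor and 31.0% of those of metastasis, while 67.1% in primary tumor fell in one led by Col3a1, Col1a1 and Lum and 64.3% in metastasis in one led by Col1a1, Col3a1 and Meg3. Of macrophages, 87.8% in lung fell in a cluster led by Ear1, Mrc1 and Chil3 that held 0.037% in primary tumor and 13.6% in metastasis, and nearly all in primary tumor and 65.0% in metastasis in one led by C1qb, C1qc and C1qa. BEC divided between a cluster led by Tmem252, Vwf and Slc6a2 (42.6% of those in lung, 99.6% in primary tumor and 73.7% in metastasis) and one led by Prx, Icam2 and Rprml. Differences within a cluster were not tested.

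In BEC the tissues differed at the level of the single genes. Mki67 was at 2.29, 3.05, 1.19 and 1.42 CPM in the 4 unchallenged lung libraries, at 160, 58.5, 27.0 and 53.5 CPM in primary tumor and at 36.9, 60.6 and 63.8 CPM in lung metastasis. Every tumor library lay above every lung library. Top2a was at 0.892 to 2.44 CPM in lung, at 18.4 to 91.0 in primary tumor and at 55.4 to 80.8 in metastasis, also without overlap. Cenpf reached at most 2.08 CPM in lung, while its lowest tumor library had 38.2.

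Against unchallenged lung, 19 of 35 tested genes were higher in BEC of primary tumor and 3 lower (15.3% of all 9462 genes tested were called higher and 14.5% lower). In BEC of lung metastasis 19 were higher and none lower (7.37% and 4.13%). The 2 contrasts share the lung libraries. In each, all 17 G2/M genes that passed the filter were called higher, and the other 5 (Aurka, Aurkb, Bub1, Bub1b and Plk1) had too few counts to be tested. Genes nearly absent from lung BEC could pass the filter only through the tumor libraries, so this count is a description. Mki67 had log2 differences of 5.13 ± 0.54 in primary tumor (adjusted p = 5.29e-06) and 4.91 ± 0.56 in metastasis (0.000121). Top2a had 4.84 ± 0.50 (adjusted p = 4.45e-06) and 5.65 ± 0.50 (4.9e-05), and Cenpf 5.88 ± 0.59 (3.36e-06) and 5.58 ± 0.61 (0.000109). Ube2c, Ccnb1, Kif11 and Tpx2 gave only 1 to 3 UMIs in all lung BEC, so that their pooled ratios carry wide intervals. For Ube2c the ratio was 81.3 (27.1 to 401) in primary tumor, and for Ccnb1 it was 78.2 on 1 lung UMI. Aurkb, at 0 in lung BEC, was at least 13.04-fold higher in primary tumor when 3 counts over all lung libraries are taken as the floor. Without lung metastasis TME replicate 5, 11 genes were called in metastasis, all among the 19 (2.35% of all genes higher).

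Of the S phase genes only Tyms and Gins2 passed in BEC. Tyms was at 15.3, 14.6, 10.4 and 5.68 CPM in lung and at 34.7, 62.3, 62.4 and 61.0 CPM in primary tumor, again without overlap. Both passed in either contrast. Levels of Pcna and Ccnd1 overlapped between lung and primary tumor (45.8 to 83.8 against 42.6 to 62.3 CPM, and 239 to 329 against 228 to 275 CPM) and were not called. The genes called lower in BEC of primary tumor were Cdkn1a, Cdkn2a and Ccnd3. Cdkn1a was at 862, 995, 265 and 233 CPM in lung and at 117, 91.6, 45.4 and 53.5 CPM in primary tumor (log2 difference -2.92 ± 0.60, adjusted p = 0.00164). In metastasis it was at 800, 209 and 138 CPM, which overlapped lung and was not called. Cdkn2a was at 52.6, 18.9, 15.8 and 2.84 CPM in lung and at 0 to 6.02 CPM in primary tumor, with overlap (adjusted p = 0.015), and Ccnd3 was at 138 to 288 against 87.3 to 126 (adjusted p = 0.0115).

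**Figure D4:**
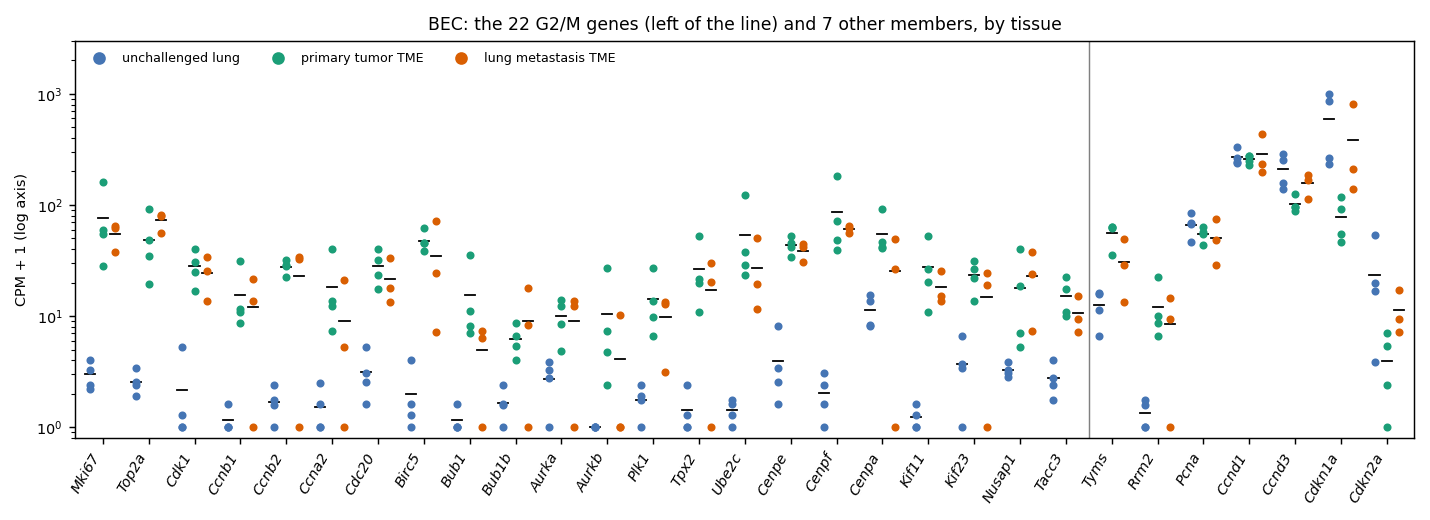
Level in BEC (CPM + 1, log axis) of the 22 G2/M genes, Tyms, Rrm2, Pcna, Ccnd1, Ccnd3, Cdkn1a and Cdkn2a, 1 point per library colored by group, with a black dash for the mean. Mki67 lies between 1.19 and 3.05 in unchallenged lung and between 27.0 and 160 in primary tumor, while Pcna and Ccnd1 overlap and Cdkn1a is lower in primary tumor.

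The share of BEC with 2 or more G2/M genes was 0.383% (1 of 261), 0% (0 of 274, which allows up to 1.09%), 0.240% (2 of 833) and 0% (0 of 269, up to 1.12%) in unchallenged lung. It was 9.52% (4 of 42), 7.50%, 5.31% and 10.8% in primary tumor and 6.25% (2 of 32), 11.2% and 7.34% in metastasis. The groups did not overlap. The difference was 8.12 percentage points for primary tumor (exact p = 0.0286, the smallest that 4 against 4 libraries allow, adjusted p = 0.171 over 6 comparisons) and 8.09 for metastasis (exact p = 0.0571, the smallest for 3 against 4, adjusted p = 0.171). Within the 3 runs that held both, it ranged from 7.50 to 9.14 points for primary tumor.

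Melanoma RNA too was higher in BEC of tumors than in BEC of unchallenged lung. The pigment genes together stood at 0 to 8.53 CPM in BEC of unchallenged lung, 160 to 1457 in primary tumor and 437 to 6371 in metastasis, beside 14119 to 20083 in sorted MM cells. Sorted MM cells carried 0.0428 to 0.0883 UMIs of G2/M genes per pigment UMI. BEC carried 3.63, 3.10, 1.53 and 0.334 in primary tumor and 0.775, 0.107 and 0.437 in metastasis, all above MM cells, with the lowest value in metastasis replicate 5. After host cells with 2 or more pigment UMIs were left out, 8 of 20 tested genes were higher in BEC of primary tumor and 3 lower, beside 12.5% and 13.5% of all 8443 genes tested. Of these 11 genes, 10 were among the 22 called with all cells. BEC of metastasis gave no value. The part of melanoma RNA in the remaining difference was not tested.

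**Figure D5:**
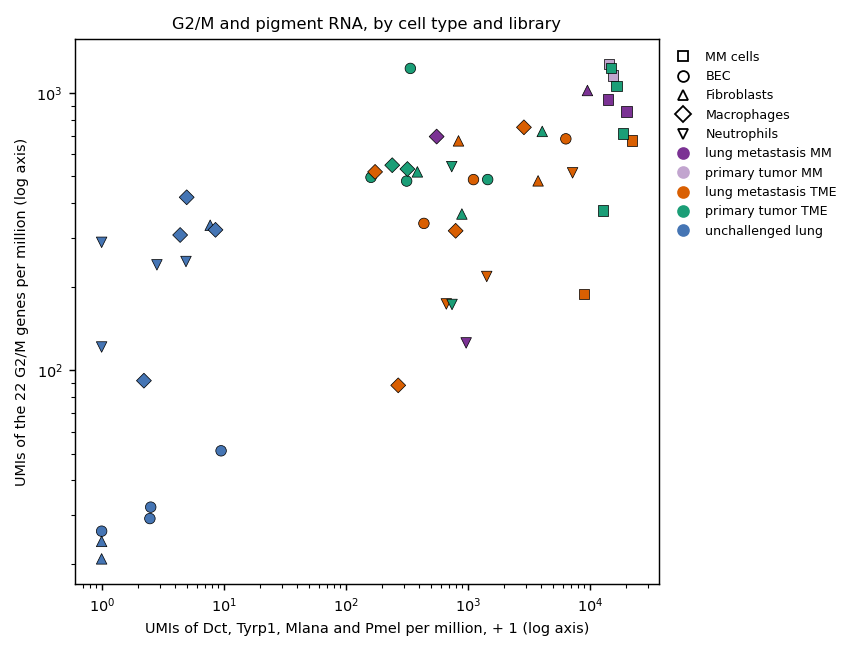
Summed level of the 22 G2/M genes (CPM) against that of the 4 pigment genes (CPM, both axes log, with 1 added to the pigment values) in MM cells, BEC, fibroblasts, macrophages and neutrophils (symbols), 1 point per library colored by group. Sorted MM cells lie at 14119 to 20083 CPM of pigment genes, and BEC of primary tumor lie at 481 to 1226 CPM of G2/M genes with 160 to 1457 CPM of pigment genes.

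In fibroblasts fewer genes passed with all libraries, though more did without unchallenged lung replicate 6, as given below. Tested as a difference of the 2 changes, 5 of 43 genes (Cenpf, Ube2c, Kif23, Top2a and Kif11) rose more in BEC than in fibroblasts of primary tumor, and Cdkn2a and Cdkn1a differed in the other direction (edgeR, 7.39% of all 12944 genes tested). For metastasis edgeR called no such difference among them (0.533%, with 1252 of all genes at an unadjusted p under 0.05). These differences were not tested without unchallenged lung replicate 6, and the fit had no term for the library that types share. Its fibroblasts had 333 CPM of G2/M genes together, beside 24.1 in replicate 4 and 20.8 in replicate 5. The G2/M share was 0% (0 of 70, which allows up to 4.29%), 0% (0 of 168, up to 1.79%) and 4.22% (83 of 1967) in unchallenged lung, 7.81%, 7.63% and 21.5% (326 of 1518) in primary tumor and 10.5% and 16.3% (8 of 49) in metastasis. All tumor libraries lay above the lung libraries, but 3 against 3 libraries cannot go below an exact p of 0.1, the value found for the 10.9 points of primary tumor, and 2 against 3 not below 0.2, found for the 11.98 points of metastasis. With cells of 2 or more pigment UMIs left out, the difference of primary tumor was 4.78 points. Among single genes 8 of 40 tested were higher in primary tumor and none lower (5.30% and 6.87% of all 11128 genes tested), and none was called in metastasis (0.809% and 0.108%), where 16 had an unadjusted p under 0.05 and DESeq2 called 5, all higher (2.89% of all genes).

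The 8 genes were Cdkn2a, the S phase genes Gins2 and Tyms, and Cdk1, Ccnb1, Ccnb2, Cdc20 and Birc5. Cdkn2a was at 0, 0 and 2.65 CPM in lung fibroblasts and at 74.7, 44.5 and 30.3 CPM in primary tumor, a pooled ratio of 19.5 (10.7 to 39.5) and a fitted log2 difference of 4.88 ± 0.98 (adjusted p = 0.0141). In metastasis it was at 33.7 CPM in replicate 5 and at 0 in replicate 6. Gins2, a subunit of the replication helicase, was at 6.02, 3.97 and 5.31 CPM in lung and at 20.4, 48.6 and 26.7 CPM in primary tumor (log2 difference 2.71 ± 0.48, adjusted p = 0.00881). Birc5 (2.71 ± 0.65, adjusted p = 0.0262), Cdk1 (2.89 ± 0.77, 0.0391) and Ccnb1 (2.77 ± 0.78, 0.0467) were also without overlap. Mki67 was at 0, 0 and 45.6 CPM in lung and at 72.9, 83.7 and 65.4 CPM in primary tumor and did not pass (1.98 ± 0.96, adjusted p = 0.22), nor did Top2a (1.18 ± 0.90, 0.441) or Ccnd1 (2.07 ± 0.77, 0.116). DESeq2 also called 8 genes, of 38 tested, Ccnd1 among them and Tyms not. All 8 were higher, beside 659 of all 11065 genes called higher and 877 lower.

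The lung library of replicate 6 stood apart among fibroblasts, with a summed G2/M level of 333 CPM against 24.1 and 20.8 in the other 2. It was the highest of the lung libraries in most other host types too. The values were 164 against 25.4 CPM in AT-2 cells, 212 against 17.9 in club cells and 186 against 84.6 and 28.1 in RCC. Monocytes had 144 (60.7 to 94.1 in the other lung libraries), NK cells 197 (82.7 and 117) and B cells 167 (92.4 to 145). BEC had 51.2 (26.2 to 32.0) and LEC 43.7 (24.9 to 32.4). It was not the highest in macrophages (307 beside 420 in replicate 5), T cells (736 beside 1165 in replicate 5) or neutrophils (246 beside 289 in replicate 4). Without this lung library 21 genes were called in primary tumor, among them 7 of the 8, and 13 in metastasis, all higher (5.34% and 1.69% of all genes were called higher in that fit). Without any other 1 tumor or lung library of the fit 2 to 4 were called in primary tumor. How many of all genes were called in those other fits is not given. Pigment genes were at 0 to 6.76 CPM in lung fibroblasts, at 386, 895 and 4081 in primary tumor and at 3774 and 840 in metastasis. G2/M UMIs per pigment UMI were 1.35, 0.409 and 0.178 in primary tumor and 0.128 and 0.80 in metastasis, above MM cells. With cells that hold 2 or more pigment UMIs left out, 14 genes were tested and none was called by edgeR in primary tumor, where 1 had an unadjusted p under 0.05, beside 2.89% of all 7706 genes called higher and 3.57% lower. The part of melanoma RNA in these differences was not tested further.

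Macrophages showed cells with G2/M genes in unchallenged lung as well as in tumors. Their G2/M share was 4.74%, 2.42%, 2.85% and 4.20% in unchallenged lung, 12.7% and 12.3% in primary tumor, and 7.93%, 0% (0 of 41, which allows up to 7.32%), 12.5% (5 of 40) and 5.68% in metastasis. Primary tumor lay 8.91 points above lung (exact p = 0.133, the smallest for 2 against 4 libraries) without overlap, and metastasis 2.98 points above (exact p = 0.314) with overlap. In primary tumor 5 of 42 tested genes were higher and 1 lower (5.00% and 8.06% of 11069 genes tested). In metastasis 1 was higher (0.885% and 0.0271%). The change from lung to tumor differed from that of BEC for 15 of 43 genes in primary tumor, 14 of them higher in BEC (9.32% of all genes), and for 4 in metastasis (0.525%).

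The histone gene Cenpa, which marks centromeres, was higher in both. It was at 17.2, 17.1, 24.4 and 16.7 CPM in lung, at 67.6 and 55.8 in primary tumor (log2 difference 1.89 ± 0.29, adjusted p = 0.0028) and at 55.6, 25.2, 52.0 and 49.2 in metastasis (1.42 ± 0.28, 0.0341). The call in metastasis was lost when the replicate number was added to the fit as a block. Tyms was at 6.11 to 8.56 CPM in lung and at 25.2 and 18.2 CPM in primary tumor (1.70 ± 0.33, adjusted p = 0.00743). Cdk4 (1.33 ± 0.32, adjusted p = 0.019), Cdk1 (1.87 ± 0.50, 0.0291) and Birc5 (2.01 ± 0.58, 0.0405) were also higher in primary tumor. Ccnd2 was lower there, with 76.2 and 69.4 CPM beside 167 to 335 in lung (-1.54 ± 0.45, adjusted p = 0.0438). Mki67 overlapped between lung and primary tumor (0.84 ± 0.62, adjusted p = 0.404). DESeq2 kept 5 of the 6 calls of primary tumor, without Birc5. These calls rest on few libraries: in primary tumor 2 each were called without unchallenged lung replicate 5 or 6. Primary tumor itself has 2 libraries here, so that leaving out either leaves 1. How many of all genes were called in these fits is not given. For metastasis 3 were called without replicate 4 (2 higher and 1 lower, beside 1.19% and 0.0980% of all genes) and none without most other libraries. Pigment genes were at 1.22 to 7.57 CPM in macrophages of lung, at 320 and 240 in primary tumor and at 173, 269, 2889 and 795 in metastasis. G2/M UMIs per pigment UMI were 1.66 and 2.29 in primary tumor and 3.00, 0.328, 0.260 and 0.40 in metastasis, above MM cells. With cells of 2 or more pigment UMIs left out, 6 of 41 genes were higher in primary tumor and 1 lower (4.89% and 7.11% of 10399 genes tested), all 6 genes called with all cells among them, and none was called in metastasis. The part of melanoma RNA in the differences that were called was not tested.

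MM cells of the 2 sites were compared last. The G2/M share was 11.7% and 18.5% in metastasis and 34.1% and 26.5% in primary tumor, a difference of 15.2 points without overlap, but with 2 against 2 libraries the exact p is 0.333 at best. By their names the replicate 5 libraries of both sites came from the same mouse, which this test did not use. The difference was 7.98 points in replicate 5 and 22.4 in replicate 4, whose libraries came from different mice. None of 45 tested genes was called by edgeR (0.00% of all 14439 genes in either direction), 7 had an unadjusted p under 0.05, and DESeq2 called 1 lower (Ccnd2, named after its values were seen), beside 0.0554% of all genes lower and 0.0485% higher. Mki67 had a log2 difference of metastasis minus primary tumor of -0.60 ± 0.38 and Top2a of -0.47 ± 0.40 (adjusted p = 1 for both).

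Genes of the cycle outside the list of 46 were followed as a second list of 65 names, of which 55 entered the fit of cell types. Lower than in MM cells were between 16 in T cells, beside 29.8% of all genes, and 38 in RCC, beside 22.7%. Higher were between 3 in AT-2 and club cells (29.3% and 27.8% of all genes) and 10 in T and B cells (24.7% and 30.9%). In T cells the share of lower genes was thus near that of all genes. The inhibitor gene Cdkn2b, the neighbor of Cdkn2a, was higher in every host type by edgeR. In BEC 17 of 36 tested were higher in primary tumor than in lung and 4 lower, among the latter Cdkn2b and the retinoblastoma family genes Rb1, Rbl1 and Rbl2, and 15 were higher and 1 lower in metastasis (15.3% and 14.5% of all genes in primary tumor, 7.37% and 4.13% in metastasis). In fibroblasts of primary tumor 5 of 49 were higher and 1 lower (5.30% and 6.87% of all genes), in macrophages 6 of 53 and 1 (5.00% and 8.06%), and edgeR called none in the metastasis of either or between the sites of MM cells. DESeq2 called 5 higher in fibroblasts of metastasis, 1 in macrophages of metastasis and none between the sites (2.89%, 2.54% and 0.0485% of all genes).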

How the data were processed

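Single-cell libraries of 10x type were mapped to the mouse genome (GRCm38/mm10) by the authors with Cell Ranger 6.1.1 and filtered with Seurat 3.2.2, and the deposited matrix holds raw UMI counts of cells with 553 to 3785 detected genes. A deposited table with normalised values was not used. Of 24 library names, 5 held the same cells and counts as another name and were left out, among them the 2 names that fit no sample's labels. Types were named from clusters (Seurat 5.3.0, 2000 variable genes less 21 cell cycle and histone genes, 17 components, 20 neighbors, resolution 0.5, 24 clusters, 22 named) by standard markers, and 97.4% of cells kept their type when those genes were left in. No doublet caller was run. UMIs were summed per library and type (at least 20 cells) and tested with edgeR 4.0.16 (quasi-likelihood, TMM, adjusted p below 0.05) in R 4.3.3, and DESeq2 1.42.0 and limma 3.58.1 (voom) were alternatives. Shares used cells thinned to 1000 UMIs and exact permutation tests over libraries (two-sided, scipy 1.17.1). Intervals and limits at a count of 0 (3 counts) cover counting error only. The library names put the libraries of a group on separate mice (several mice in the tumor libraries of replicate 1-3), but some mice gave libraries to more than 1 group, and copied names carried other mouse numbers than their originals. Statistics are given from among the called members with the 5 largest log2 fold changes of a comparison in either direction and from Mki67, Top2a, Pcna, Ccnd1 and Cdkn1a, which are not printed for every comparison, and other members are described by level. The members and lists were chosen with earlier results of these data known. On simulated counts, 64.5% of 200 genes changed 4-fold were recovered for fibroblasts against MM cells, 43.5% for fibroblasts of primary tumor against lung and 58% for the sites of MM cells. Alternatives were other tools, scaling, filters, depths, gene sets, runs, replicate blocks and each library left out. Those with run as a term, within runs, without Kif23, with monocytes as a further type, with S phase genes, and the differences between types were added after seeing the data.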

Additional observations from a re-analysis of the deposited data

Results flagged for a closer look

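A library far from the others of its group was met in 6 of 59 groups of 4 to 10 libraries. A chance rate of about 1 in 20 would hold for independent groups. These groups share libraries and some values rest on few UMIs, so the count is a description. In LEC of lung metastasis, replicate 5 had 56.4 CPM of Top2a, beside a median of 3.73 in the other 3 libraries, and replicate 4 had 21.8 CPM of Ccnd1 beside 257. LEC of that replicate 5 held 6963 CPM of pigment genes and 0.0711 G2/M UMIs per pigment UMI, within the 0.0428 to 0.0883 of sorted MM cells. In LEC of unchallenged lung, replicate 1 had 2.99 CPM of Top2a (median of the others 0.383) and replicate 4 had 569 CPM of Cdkn1a (61.2). Monocytes of lung metastasis replicate 5 had 42.8 CPM of Top2a (9.03), with 7989 CPM of pigment genes and 0.0469 G2/M UMIs per pigment UMI, also within that range. The part of melanoma RNA in these values was not tested. B cells of unchallenged lung replicate 5 had 4.62, the lowest of 4 libraries (14.5), which is 1 UMI in 44 cells.

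The change from unchallenged lung to tumor differed between cell types for some genes, by an interaction term in edgeR. The fit had no term for the library, though the same library could give several of these types. It was not repeated without unchallenged lung replicate 6, which stood apart among fibroblasts. For primary tumor 7 of 43 genes differed between BEC and fibroblasts, 5 of them higher in BEC (7.39% of all 12944 genes tested differed). Between BEC and macrophages 15 differed, 14 of them higher in BEC (9.32%). For lung metastasis 4 differed between BEC and macrophages (0.525%) and none between BEC and fibroblasts (0.533%).

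Cells with the MM profile also occurred in libraries sorted for host cells, and these MM cells entered no test. They were 2873 of the 5166 cells of lung metastasis TME replicate 5 and 332 of the 1036 cells of replicate 6. In primary tumor TME they numbered 21 in replicate 1-3, 208 in replicate 4, 45 in replicate 5 and 63 in replicate 6. At 1000 UMIs, 12.96% of these cells in lung metastasis TME replicate 5 and 5.14% in replicate 6 had 2 or more G2/M genes. Fibroblasts, BEC and macrophages were at 10.5%, 11.2% and 12.5% in that replicate 5 and at 16.3%, 7.34% and 5.68% in replicate 6. In primary tumor TME the shares of these MM cells were 20.0% in replicate 1-3, 13.9% in replicate 4, 9.30% in replicate 5 and 19.0% in replicate 6, some on few cells (4 of 20 in replicate 1-3). Fibroblasts were at 7.81%, 7.63% and 21.5% in replicates 4, 5 and 6.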

How the results depend on the processing

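Apart from the share taken with S phase genes, no result changed sign under any alternative, and the cause of the shifts below was not tested. With S phase genes the share differed from MM cells by 0.470 points in T cells and 0.797 in NK cells. In macrophages of metastasis it differed from lung by -0.964 points. These 3 signs are the reverse of those of the G2/M share. Scaling by relative log expression moved the median of all genes by 0.03 to 0.44 log2 units toward host cells in the contrasts with MM cells. Called genes under DESeq2 numbered 7 in fibroblasts, 15 in BEC, 17 in macrophages, 15 in AT-2 cells and 8 in club cells against MM cells, 5 in fibroblasts and 2 in macrophages of metastasis against lung, and 1 between MM sites. Under that other scaling they numbered 14 in fibroblasts (1393 of all 13615 genes were called lower and 5761 higher) and 9 in club cells (1359 lower and 5011 higher). With limma-voom they numbered 25 in club cells. With no filter beyond 1 count, 13 and 8 were called in fibroblasts of primary tumor and metastasis, 10 and 2 in macrophages, and 1 between MM sites. In macrophages of primary tumor 10 were called with at least 50 cells and 10 with run as a term. In macrophages of metastasis 2 were called after clustering with the cell cycle genes. For limma-voom, the open filter, 50 cells, run and this clustering, the number of all genes called is not given. With host cells of 2 or more pigment UMIs left out, 11 were called in BEC and 0 in fibroblasts of primary tumor and 0 in macrophages of metastasis, BEC and fibroblasts of metastasis gave no value, and the fibroblast share difference of primary tumor was 4.78 points.

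Tumor and lung libraries of 1 number came from different mice, and same-numbered libraries did not pair: of their correlations the fibroblast ones ranged from -0.124 to 0.201 and the BEC ones from -0.212 to 0.155. With the replicate block 0 genes were called in macrophages of metastasis, and other counts stayed within 1.5 times.

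The fibroblast share difference from MM cells lost its call at 500 UMIs (-4.43 points), with 3 or more genes (-5.25) and with Hmgb2 and Tubb4b (-18.7). The last also ended the call in neutrophils (-7.53), T cells (-19.8), NK cells (-19.7), club cells (-21.4) and RCC (-15.9), and 1 or more genes that in club cells (-37.8). The AT-2 difference was -9.86 at 500 UMIs, -37.0 at 2000, -48.2 without thinning, -35.8 with 1 or more genes and -9.27 with 3 or more. Against lung, fibroblasts of primary tumor differed by 23.1 without thinning, 23.4 with 1 or more genes and 4.68 with 3 or more, and those of metastasis by 25.4, 16.4 and 8.18, and 6.92 at 500 UMIs. Macrophages of primary tumor differed by 7.04 at 500 UMIs, 10.1 at 2000, 22.1 without thinning, 15.8 and 5.67 with 1 and 3 or more genes and 10.2 with Hmgb2 and Tubb4b. BEC of metastasis differed, in the same order, by 4.32, 10.3, 12.9, 15.4, 5.38 and 12.2. Not every share difference that shifted in size under these settings is listed here.

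With each library left out in turn, counts of called genes ranged from 14 to 25 in fibroblasts, 9 to 29 in AT-2 cells and 4 to 19 in club cells against MM cells. Against lung they ranged from 11 to 24 in BEC of metastasis, 2 to 21 in fibroblasts of primary tumor and 0 to 3 in macrophages of metastasis. Fibroblasts of metastasis, macrophages of primary tumor and either MM site had 2 libraries, and leaving out either leaves 1, so no range is given. How many of all genes were called in these fits is not set beside the ranges, which do not part the members from other genes. The fibroblast share difference from MM cells ranged from -17.9 to -10.4 points. AT-2 cells rest on 3 libraries, so that their exact p cannot go below 0.0571.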
